A study of Mus musculus with 2 samples.

Results

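The genes described here are 10 genes of the p53 pathway and of cell cycle arrest, measured in eosinophils of the healthy mouse colon. They were chosen by name, with their levels in these data already known, and of each gene the transcript row was selected on its mean read total, the highest being kept. The rows not kept, 1 each of Cdkn1a and Trp53, are given below. All 10 were found among the 23456 genes of the table. Naive wild-type mice of strain C57BL6 gave the colons, which were digested with enzymes before eosinophils, granulocytes that live in the gut wall, were sorted by flow cytometry. The data hold 1 group of 2 samples, with no treated, mutant or other control group, and the sources used here do not give the age or number of the mice or the sort gate. Messenger RNA was read by CEL-Seq, a method that sequences tags near the 3′ end of transcripts, with 3 technical libraries per sample. For each transcript the table holds a mean read total and a mean RPKM, that is, reads divided by transcript length in kilobases and by library depth in units of 1000000 reads, both over the 6 libraries. Values of single samples were not analysed here, and there is no SD, n or test. Every level below is a description. Intervals are exact 95% Poisson intervals of the reads summed over the libraries; they cover counting error only, and reads copied from 1 molecule are counted separately.

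p53, encoded by Trp53 in the mouse, is a transcription factor that stressed or damaged cells stabilise. MDM2 is the ubiquitin ligase that marks p53 for breakdown, and its gene is itself switched on by p53. The best known p53 target is Cdkn1a, whose protein p21 blocks cyclin-dependent kinases (CDKs) and so holds cells before DNA replication. Mature granulocytes have left the cell cycle, and p21 and its relative p27 are commonly present in cells that no longer divide.

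The promoters are shown first because Cdkn1a is listed from a pair of start sites. The windows are the 250 bases before each annotated start on build GRCm38.p6, from RefSeq, and all 10 genes matched, with 12 windows. For Cdkn1a, on the plus strand of chromosome 17, the distal window is chr17:29090729-29090978 and the proximal window is chr17:29093519-29093768. Capitals mark matches to the p53 half-site, adjacent half-sites with at most 1 mismatch each, and TATAA on either strand.
Cdkn1a distal: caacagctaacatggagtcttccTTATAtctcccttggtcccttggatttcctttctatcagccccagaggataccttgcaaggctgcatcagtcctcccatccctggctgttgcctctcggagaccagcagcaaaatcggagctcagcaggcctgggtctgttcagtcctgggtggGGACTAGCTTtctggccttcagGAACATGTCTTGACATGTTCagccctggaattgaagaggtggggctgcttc
Cdkn1a proximal: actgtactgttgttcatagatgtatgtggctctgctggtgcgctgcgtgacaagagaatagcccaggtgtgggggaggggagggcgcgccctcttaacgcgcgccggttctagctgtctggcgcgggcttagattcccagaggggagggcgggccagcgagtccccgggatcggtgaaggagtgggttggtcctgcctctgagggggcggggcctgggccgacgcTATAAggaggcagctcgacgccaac
The distal window held 2 exact matches to the p53 half-site, a palindrome that reads the same on both strands. The match nearer to the start was followed directly by a half-site with at most 1 mismatch, and together they span chr17:29090928-29090947, which begins 2844 bases before the start listed for the main Cdkn1a transcript. The proximal window held no half-site match and had TATAA on the same strand, from 25 to 21 bases before the start. Another 5 genes had 1 exact half-site match each, shown in capitals with 10 bases on either side, 5′ to 3′ on the strand of the gene.
Mdm2: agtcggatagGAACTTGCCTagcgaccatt
Ccng1: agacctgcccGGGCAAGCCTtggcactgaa
Trp53: acccacggaaGGACTTGCCCttacttgtta
Gadd45a: ggttggctgaGGGCTAGCCCcatatctccg
Cdkn2d: ggcctggggcGGGCTTGCCTcgcccactag
These stretches are chr10:117710925-117710954 on the minus strand for Mdm2, chr11:40755452-40755481 on the minus strand for Ccng1 and chr11:69580274-69580303 on the plus strand for Trp53. Those of Gadd45a, chr6:67037428-67037457, and Cdkn2d, chr9:21291292-21291321, are on the minus strand. In all, 6 of 12 windows held an exact half-site, against 7.13% of the 32851 windows in the RefSeq table. Adjacent half-sites with at most 1 mismatch each were in the distal window of Cdkn1a and in that of Ccng1, and in 0.384% of all windows. TATAA was on either strand of 4 of the 12 windows and of 22.8% of all windows, with no match overlapping a half-site in the member windows. A match is a string of letters and says nothing about binding in these cells.

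**Figure D1:**
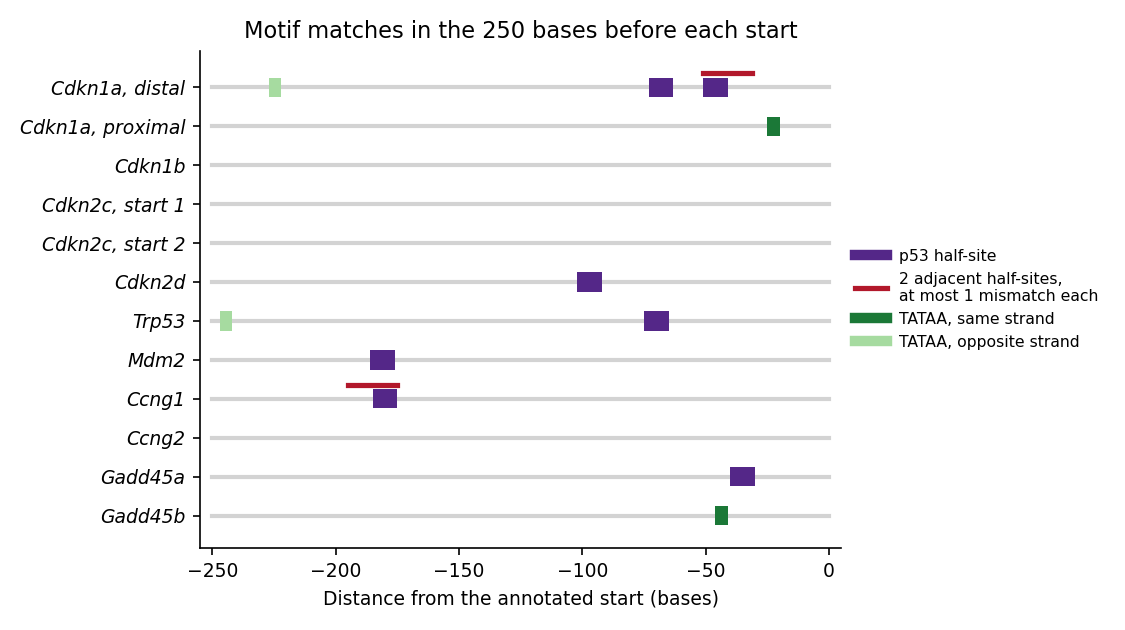
Motif matches in the 250 bases before each annotated start of the 10 genes; the x axis is the distance from the start in bases and each grey line is 1 window. Boxes mark exact p53 half-sites and TATAA, and red bars mark adjacent half-sites; the distal Cdkn1a window holds 2 exact half-sites and the proximal one holds none.

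All 10 genes reached an RPKM of 1, a level that 31.0% of all genes reached. An RPKM of 10 was reached by 8 of them, against 8.77% of all genes, and an RPKM of 100 by 3, against 1.28%. Their median RPKM was 39.2, beside 0.186 over all genes and 0.749 over the 16204 genes above 0. Because the genes were chosen with these values known, nothing is read from those shares. The lowest member, Cdkn2c at an RPKM of 2.67, and the highest, Cdkn1a at 1394, stood far apart.

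**Figure D2:**
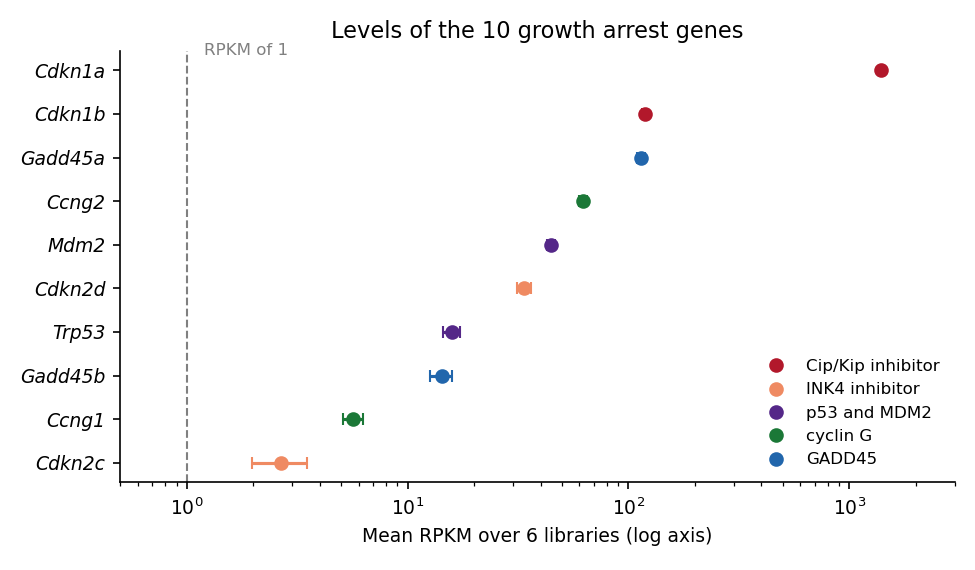
Mean RPKM of each gene over the 6 libraries on a log axis, with exact 95% Poisson intervals of the reads as bars and colours by role. Cdkn1a stands at 1394, 11.8 times Cdkn1b, the next gene, and all 10 lie right of the dashed line at an RPKM of 1.

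The Cip/Kip inhibitors bind cyclin and CDK together and act on several CDKs. Cdkn1a, which encodes p21, had a mean of 9800.5 reads per library and an RPKM of 1394 (1382 to 1405). It ranked 18 among all genes by RPKM and 13 by reads per 1000000 reads on genes (RPM), a scale without transcript length, and it held 0.764% of all reads on genes. Cdkn1b, which encodes p27, had a mean of 928 reads and an RPKM of 118 (115 to 122), rank 246. The RPKM of Cdkn1a was therefore 11.8 times that of Cdkn1b (11.4 to 12.1), and 10.6 times by RPM. Cdkn1c, the third gene of the family, which encodes p57, had an RPKM of 0.679 from 20 reads over the libraries.

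The INK4 inhibitors bind CDK4 and CDK6 alone. Cdkn2d, which encodes p19INK4d, had 115.5 reads per library and an RPKM of 33.7 (31.2 to 36.3). Cdkn2c, which encodes p18INK4c, had 8.17 reads per library and an RPKM of 2.67 (1.97 to 3.52). The RPKM of Cdkn2d was 12.6 times that of Cdkn2c (9.46 to 17.3). Cdkn2b, which encodes p15INK4b, had 1.63 from 36 reads, and both rows of Cdkn2a, the senescence gene for p16INK4a and p19ARF, were listed at 0. Over the 7 inhibitor genes, Cdkn1a held 89.9% of the summed RPKM and 90.2% of the reads (90.0% to 90.5%, exact binomial interval).

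Trp53 itself had 85.2 reads per library and an RPKM of 15.9 (14.5 to 17.3), rank 1469. Mdm2 was higher, with 380 reads and an RPKM of 44.7 (42.9 to 46.6), rank 644. The RPKM of Mdm2 was 2.82 times that of Trp53 (2.56 to 3.11), and 4.46 times by RPM. Both were well below Cdkn1a.

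Cyclin G proteins lack a role in driving the cycle; Ccng1 is a p53 target, and Ccng2 is commonly raised in cells that have stopped dividing. Ccng2 had 398 reads per library and an RPKM of 62.2 (59.8 to 64.8), and Ccng1 had 57.5 reads and an RPKM of 5.69 (5.10 to 6.32). Thus the RPKM of Ccng2 was 10.9 times that of Ccng1 (9.78 to 12.3), and 6.93 times by RPM. Ccni, a related cyclin, lay between them at an RPKM of 15.8.

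GADD45 proteins are stress-induced adaptors that bind PCNA, CDK1 and a stress kinase. Gadd45a, a p53 target, had 362 reads per library and an RPKM of 114 (109 to 118). Gadd45b, a target of NF-kB signalling, had 49.7 reads and an RPKM of 14.2 (12.7 to 16.0). Gadd45g, the other member of that family, had 17.9. The RPKM of Gadd45a was 7.97 times that of Gadd45b (7.06 to 9.02) and 6.33 times that of Gadd45g (5.66 to 7.10).

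By RPKM the order was Cdkn1a, Cdkn1b, Gadd45a, Ccng2, Mdm2, Cdkn2d, Trp53, Gadd45b, Ccng1 and Cdkn2c. In 2 pairs of neighbours the interval of the ratio included 1. These were Cdkn1b over Gadd45a, at 1.04 (0.993 to 1.10), and Trp53 over Gadd45b, at 1.11 (0.963 to 1.29). The remaining neighbours differed beyond counting error, which is the sole error that can be given here. Without length, by RPM, Cdkn1b at 724 was followed by Ccng2 at 311, Mdm2 at 296 and Gadd45a at 283. Cdkn1b over Ccng2 was 2.33 (2.22 to 2.44), so Cdkn1b and Gadd45a were near each other by RPKM only. Ccng1 at 44.8 stood before Gadd45b at 38.7, a ratio of 1.16 (0.989 to 1.36) that is within counting error. Ccng2, Mdm2 and Gadd45a did not differ beyond counting error between neighbours. The ratios were 1.05 (0.990 to 1.11) for Ccng2 over Mdm2 and 1.05 (0.988 to 1.11) for Mdm2 over Gadd45a. Of the 35-base words in the last 500 bases of each transcript, none was shared with a transcript of another gene for 9 of the 10 members, and 1.29% were for Trp53, with its pseudogene.

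A pair of members had more than 1 row. Cdkn1a is listed as NM_007669, from 29093772 to 29100722 on chromosome 17, with 58803 reads over the 6 libraries, and as NM_001111099, from 29090986 to the same end, with 2670. The second row starts 2786 bases upstream, after the distal promoter window shown above, and held 4.34% of the reads of the gene, at an RPKM of 104. Trp53 is listed as NM_011640 with 511 reads and as NM_001127233, a splice variant with the same ends, with 15 reads and an RPKM of 0.314. Each pair shares its last exons, so a 3′ tag there cannot tell the rows apart, and the sources used here do not say how the authors divided such reads. Among 584 groups of rows with a common gene and 3′ end, 25.2% listed the same reads for the top 2 rows. In 59.2% the next row had under 10% of the reads of the top row, as in both genes here. Whether the split reflects use of the start sites was not tested.

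Although the table holds no value per library, it keeps a trace of them. The RPKM is a mean of reads divided by depth, so dividing reads by RPKM and transcript length gives a harmonic mean depth. That is the inverse of the read-weighted mean of 1/depth. It leans towards the libraries that held the reads and is called mean depth below. Transcripts with 1 read in all gave the 6 depths as 1892486, 2070937, 2100580, 2396564, 4343108 and 4752358 reads. A gene at the same level per depth in every library would have a mean depth of 2.93 M (M stands for 1000000 reads), with 51.8% of its reads in the 2 deepest libraries. Over 3043 rows with 300 or more reads and a matched length the median was 3.01 M. Of these rows 5% were below 2.58 M and 5% were above 3.60 M. The libraries could not be assigned to the samples, and library depth, sample and primer pool cannot be told apart here.

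Cdkn1a had the largest mean depth of the 10 genes, at 3.68 M (counting SE 0.00576), higher than all 22 other rows with reads within a factor of 2 of its own, whose median was 2.96. Of the 3043 rows with 300 or more reads, 97.1% were lower. Between 70.4% and 86.1% of its reads must then have come from the 2 deepest libraries. That range corresponds to a level per depth 2.21 to 5.78 times that in the other 4 libraries. With both Cdkn1a rows summed, the mean depth was 3.58 M and the share 66.6% to 83.5%. The row NM_001111099 alone lay at the opposite end, at 2.21 M, with at most 25.7% of its reads in the deepest pair; 0.723% of the 3043 rows were lower. Its length is the least certain, since the ends of the matched GENCODE transcript were moved by 1028 bases to give 1936.

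Cdkn1b followed at 3.26 M (SE 0.0165), with 53.3% to 74.2% of its reads in the 2 deepest libraries, a range that begins just above the 51.8% of an even level. Gadd45a and Ccng2 lay on the other side. Gadd45a had a mean depth of 2.61 M (SE 0.0212) and 16.3% to 48.6% of its reads in the deepest pair, and Ccng2 had 2.57 M (SE 0.0199) and 13.3% to 46.5%. For Ccng2 the ends of the matched transcript were moved by 316 bases to a length of 2494, an uncertainty that the SE leaves out. Among rows of like read number, 75.4% were lower than Cdkn1b, 6.30% lower than Gadd45a and 4.03% lower than Ccng2. The ranges of the other 6 genes spanned the even level, with mean depths from 2.70 M for Cdkn2d to 3.03 M for Trp53. The level of Cdkn1a in the table is therefore a mean over unequal libraries, provided that the transcript length used is right.

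**Figure D3:**
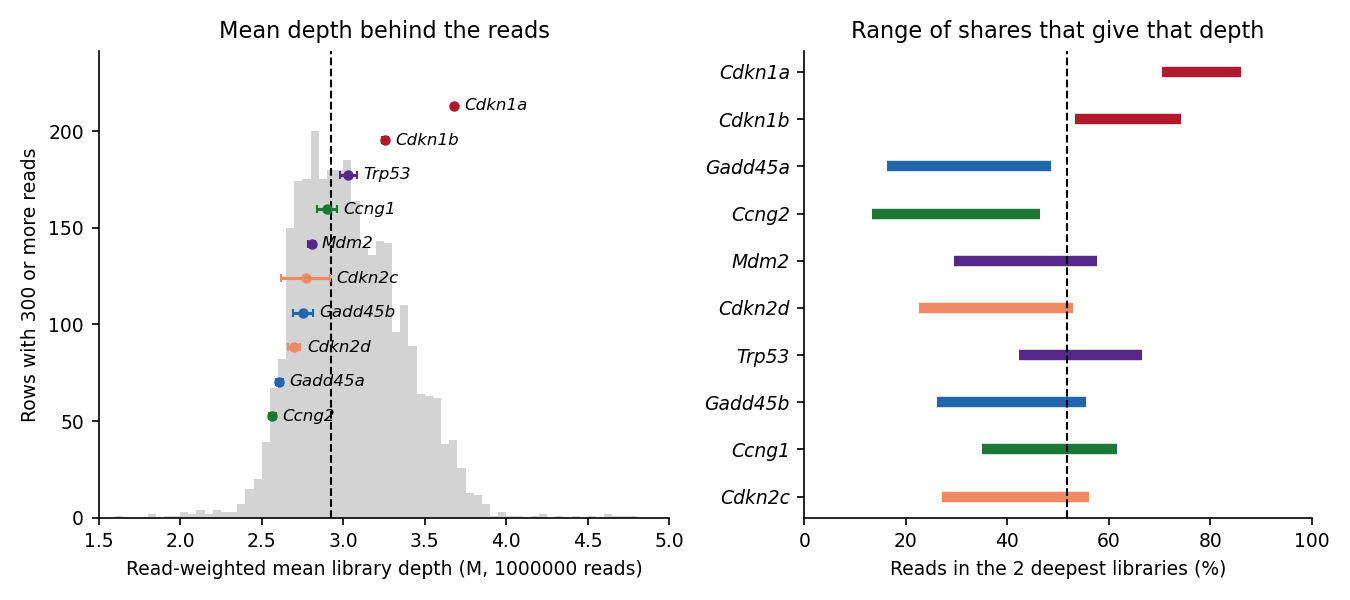
Left, read-weighted harmonic mean of library depth in M (1000000 reads). Grey bars count the rows with 300 or more reads and a matched length, and points are the 10 genes with counting SE (their height has no meaning). The dashed line is the value of 2.93 for an even level. Right, the range of shares of reads in the 2 deepest libraries that can give that depth, with the even share of 51.8% dashed; Cdkn1a lies highest at 70.4% to 86.1%, and Ccng2 and Gadd45a lie lowest.

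Markers of the cell types that the sort could hold were set beside this. Of 9 eosinophil markers 8 reached an RPKM of 1, a level that 31.0% of all genes reached, with 771 in sum. They were led by Alox15 at 230 and the eotaxin receptor Ccr3 at 155, while the granule peroxidase gene Epx stood at 0.265. The 7 eosinophil markers with 300 or more reads and a matched transcript length had mean depths from 2.46 to 3.26 M, with a median of 2.82. All 13 epithelial markers reached an RPKM of 1, from 5.09 to 89.3 and 396 in sum. The 10 with enough reads and a matched length had mean depths from 3.00 to 3.48 M, with a median of 3.20. Fibroblast and smooth muscle markers, 9 of 9 at that level and 187 in sum, had a median of 3.22 M over 6 genes. Erythrocyte and platelet markers, 6 of 6 and 973 in sum, had mean depths of 3.28 to 3.61 M over 3 genes. The main Cdkn1a row, at 3.68 M, lay above each of these ranges, whereas both rows summed, at 3.58 M, lay within that of the erythrocyte and platelet markers. The summed value depends on the uncertain length of the row with the upstream start, so its place in that range is uncertain too. The part of the Cdkn1a level from cells other than eosinophils was not tested. In sorted bulk RNA more cells of a type and more RNA per cell cannot be told apart.

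Of the other lists, 7 of 9 macrophage and monocyte markers reached an RPKM of 1, with 159 in sum, as did 4 of 7 for B and plasma cells, with 49.2 in sum. For T and NK cells it was 4 of 8, with 6.09 in sum and none above 1.56. Neutrophil markers were at 3 of 9 (33.3%, near the 31.0% of all genes), with 12021 in sum. Of that sum Retnlg, a secreted resistin-like protein, held 11986. S100a9 had 23.9 and S100a8 had 10.2, and Elane and Mpo, which define neutrophil precursors, were listed at 0. Retnlg had a mean depth of 2.69 M. Endothelial and mast cell or basophil markers were at 1 of 4 (25%) and 1 of 7 (14.3%), below the share of all genes.

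Around the 10 genes, other genes that p53 is known to activate were uneven. Of 32 such genes 18 reached an RPKM of 1, a level that 31.0% of all genes reached. The list median was 1.51. Btg2, an antiproliferative gene that is also an immediate early gene, had 139, the death receptor gene Fas 120 and Pmaip1, which encodes the pro-apoptotic NOXA, 115. By RPM, without length, Btg2 had 1008, Fas 133 and Pmaip1 609, so the 3 were near each other by RPKM only. The list has 4 genes at 0, among them Aen, Ddb2 and Pidd1.

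Of other p53 family genes and regulators, without Trp53 and Mdm2, 10 of 19 (52.6%) reached an RPKM of 1, against 31.0% of all genes. Their median was 1.53, beside 0.186 over all genes. The highest were the acetyltransferase gene Ep300 at 7.44, the ubiquitin ligase gene Rchy1 at 6.58 and the deubiquitinase gene Usp7 at 6.18. Of the searched words of Rchy1, 13.6% are shared with other genes. The p53 relative Trp73 was listed at 0. So were Rpl5 and Rpl11, ribosomal protein genes that every cell uses, so a value of 0 here says how a gene is listed and not that it is silent.

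All 5 genes named for growth arrest and DNA damage reached an RPKM of 1, against 31.0% of all genes, around a median of 17.9. Ppp1r15a (GADD34), the phosphatase subunit that restores translation after stress, led at 138, and Ddit3, the stress factor CHOP, was lowest at 8.43. Antiproliferative BTG and TOB genes had 4 of 5 at that level and a median of 6.96, with Btg2 at 139, Btg1 at 48.6 and Tob2 at 6.96; Btg3 was listed at 0. Growth arrest specific (Gas) genes had 3 of 8 (37.5%, near the 31.0% of all genes) and a median of 0.666. They were led by Gas7 at 73.9, the noncoding Gas5 at 11.1 and Gas6, a ligand of TAM receptors, at 1.73. Of the searched words of Gas5, 10.7% are shared with another gene.

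Of the cell cycle kinase genes listed, Cdk2, Cdk4 and Cdk1 (at 1.58) were above an RPKM of 1 and Cdk6 was at 0.604. Of 12 cyclin and CDK genes of the cell cycle 9 (75%) reached an RPKM of 1, against 31.0% of all genes, around a median of 1.70. Cdk2, the main target of p21 and p27, had 62.6, Cdk4 had 37.2 and the D-type cyclin gene Ccnd2 had 3.07. Pocket protein, E2F and DREAM genes, some of which repress cycle genes in resting cells, had 6 of 17 (35.3%, near the 31.0% of all genes). Their median was 0.344, and Lin37 at 27.4, the repressor E2f4 at 12.8 and Rbl1 at 4.88 were the highest. DNA replication and mitosis genes had 10 of 15 with a median of 1.21, and Top2a at 6.84, Mcm7 at 6.57 and Mcm6 at 2.94 were the highest. Of the searched words, 33.5% of those of Mcm7, 9.23% of Cdk4, 6.44% of Mcm6 and 5.15% of Lin37 are shared with other genes. Bub1 was listed at 0.

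Genes that act on the members were also measured. The minimum used for them is an RPKM of 1, which 31.0% of all genes reached. FoxO factors, which are known to activate Cdkn1b and Ccng2, had 2 of 4 genes at that minimum and a median of 4.25, with Foxo4 at 29.2, Foxo1 at 7.52 and Foxo3 at 0.975. Genes of p27 turnover had 4 of 8 and a median of 2.02, with the ubiquitin ligase subunit genes Skp1 at 18.9, Rbx1 at 14.7 and Cul1 at 10.7. Of the searched words, 8.58% of those of Foxo1 and 0.644% of those of Rbx1 are shared with other genes. Transcription factors known to act on Cdkn1a had 11 of 12 and a median of 6.57, led by Cebpb at 304, Egr1 at 177 and Klf6 at 157. Myc, which represses Cdkn1a, was listed at 0.

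**Figure D4:**
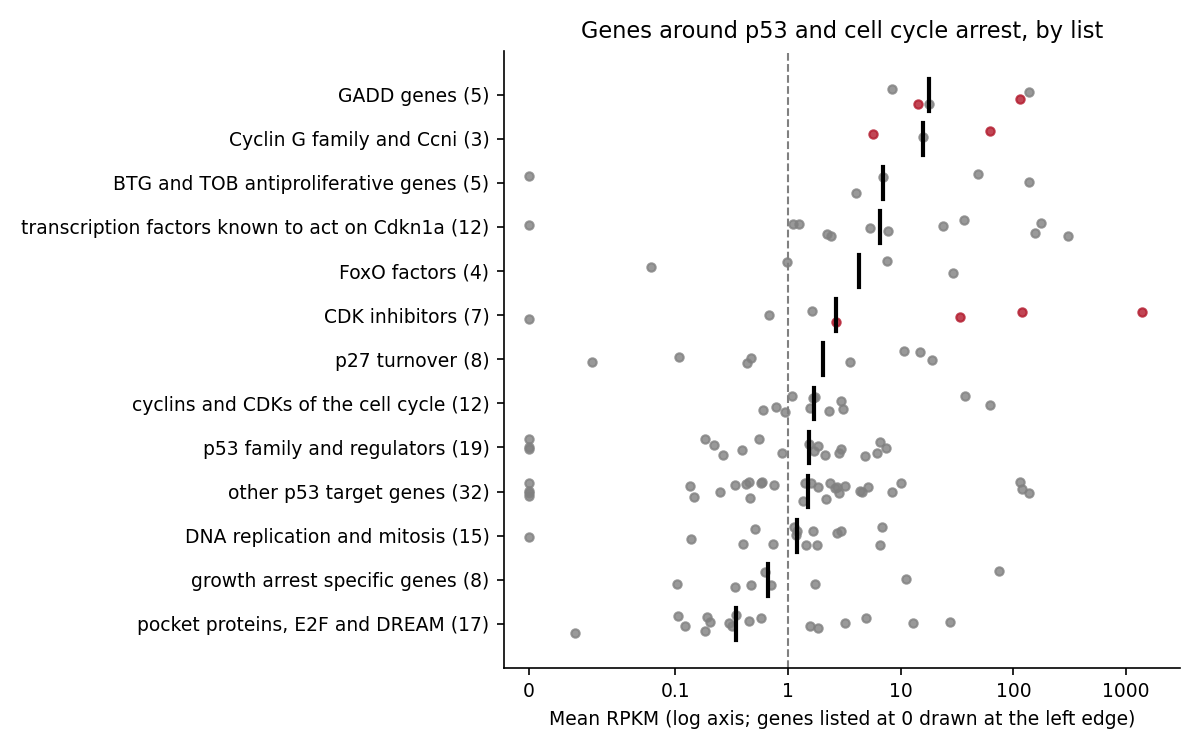
Mean RPKM of each gene in 13 lists around p53 and cell cycle arrest, on a log axis; red points are among the 10 genes, black bars are list medians, the number of genes stands beside each name, and genes listed at 0 are at the left edge. Medians run from 17.9 for the growth arrest and DNA damage genes to 0.344 for pocket protein, E2F and DREAM genes, and the dashed line marks an RPKM of 1.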

How the data were processed

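Colonic eosinophils of naive mice were measured in 2 samples of 1 group, with 3 technical CEL-Seq libraries each, per the labels' protocols. The submitters' processing notes name STAR 2.4.2a, DESeq and build mm10, and the sources used here do not give the read counter or annotation release. RPKM was computed by the authors, per the file headers. The deposited read totals are means: 100% of them times 6 are whole within 0.0001. There were 0 columns of other samples. The table has 31295 rows, and 30730 were given current gene names by RefSeq accession, 402 by symbol and 85 by synonym, while 78 kept their own. One row per gene, the one with the most reads, was kept.

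RPM is reads per 1000000 of the 1282064.5 mean reads on genes per library, or 7692387 over the 6 libraries; the depths sum to 17556033. Read totals times 6 gave exact 95% Poisson intervals, and 0 reads allow up to 3, or 0.390 RPM. Transcript lengths came from GENCODE M21 exons, moved to the start and end in the table. Of 1432 transcripts with 1 read, 1184 then lay within 0.1% of a depth, including 302 of the 387 whose ends had moved by 100 bases or more. Each depth is the median of the fullest windows of 0.002%. Shares of reads in the 2 deepest libraries are the lowest and highest that give the observed mean depth (linear programming). They ignore counting error and assume that length is right.

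The members and lists were chosen with earlier results of these data known. Named genes are all members, the 3 highest other genes of each pathway list and up to 3 genes listed at 0. Cdk1, Cdk6 and the cell type markers in the text were chosen after their values were seen. Protein identities were planned but not computed. Shared words were searched for 147 of 148 listed genes. No test was made. Values were computed in Python 3.11.15 (scipy 1.17.1, numpy 2.4.6, pandas 2.3.3) and drawn with matplotlib 3.10.9. On simulated data the largest error of 6 depths was 2.87e-07%. The simulated shares lay within their bounds in 100% of cases, which follows from how the bounds are made. That simulation used the true depths and length, so it says nothing about errors of length.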

Additional observations from a re-analysis of the deposited data

How the results depend on the processing

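The number of members at the minimum stayed at 10 for any RPKM above 0, an RPM of 1, rescaled RPKM and the row with the highest RPKM, and was 9 at an RPKM of 5. Their median of 39.2 was 186 by RPM and 165 on RPKM scaled to sum to 1000000 over genes, which are other units. The share of the CDK inhibitor reads held by Cdkn1a, 89.9% by RPKM, was 90.2% by RPM and 90.5% with all rows of a gene summed. Summing rows moved 1 of the 10 single levels past its interval, and taking the row with the highest RPKM moved none. Of the 13 pathway lists, the number of genes at the minimum moved by over 1.5 times in 7 at an RPKM of 5, in 6 for any RPKM above 0, in 4 by RPM and in 2 on rescaled RPKM. Leaving out a replicate was not run, as no value per sample was analysed. No paired analysis was possible because the samples form 1 group and the columns are pooled. With 49 reads over the libraries, Cdkn2c had the widest interval of the 10 genes relative to its level.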
